A study of Arabidopsis thaliana with 12 samples.

Results

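CHLM (AT4G25080) and CHLP (AT1G74470) encode enzymes of chlorophyll synthesis in Arabidopsis thaliana, and their transcript levels were compared between plants in normal light and plants recovering from light stress. They were chosen by name, from 1 probe each, as 2 of the 691 genes that have a probe of their own by the platform's annotation (692 of the 3439 probes on the array). RefSeq gives the symbol CHLM to AT4G25080 and the name geranylgeranyl reductase to AT1G74470. Neither gene is listed on any probe shared with another gene. All 12 samples were total RNA from wild type of the ecotype Columbia 0. Control plants (6 samples) grew at 80 µE. Recovered plants (6 samples) had received 1000 µE during 1 h and had been back at 80 µE for 48 h. The labels used here give neither plant age nor plant part, and they do not state whether the samples of a group were grown or harvested separately. The p-values thus rest on the scatter among these 12 samples, part or all of which may be technical. The titles name the controls by the starting time, so the light treatment and the later harvest cannot be told apart.

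Chlorophyll is built in the plastid from glutamate by way of 5-aminolevulinic acid and protoporphyrin. Once magnesium chelatase has placed magnesium in the ring, CHLM moves a methyl group from S-adenosylmethionine onto magnesium protoporphyrin, which makes the substrate of the cyclase that closes the isocyclic ring. CHLP acts at the far end, where it reduces the geranylgeranyl chain to the phytyl chain that anchors chlorophyll in its binding proteins, and the same phytyl diphosphate feeds tocopherol and phylloquinone synthesis. Free porphyrin intermediates produce singlet oxygen in light, and plants are known to adjust the pathway when light intensity changes.

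The files hold 1 intensity per probe and sample, with no depth, and the number of arrays limits the precision. The median intensity of the deposited values lay between 0.426 and 0.458 in recovered samples 1, 2, 5 and 6 and between 0.196 and 0.284 in the other 8 samples. Within each group, numbers 1 and 2, numbers 3 and 4, and numbers 5 and 6, called adjacent numbers from here on, resembled each other most: Pearson's r across probes was 0.854 to 0.939 for adjacent numbers of a group and 0.650 to 0.794 for its other samples. Should they be repeat readings of 1 RNA, which no label states, SEs and p-values from 6 samples per group are too small. Between samples of different groups r was 0.611 to 0.859, so some of these were more alike than any non-adjacent samples of a group. LHCB1.5, an antenna protein gene of green tissue with near-identical relatives, lay between the 99.1 and 99.5 percentile of the probes of every sample. The 4 small-subunit genes of Rubisco and the 7 markers of other leaf cell types that were listed have no probe of their own and were not analysed here.

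CHLM, the methyltransferase gene, did not pass the test, and samples 5 and 6 of both groups carried most of its difference. Its deposited intensity had a lowest value of 0.0267, a median of 0.138 and a highest value of 0.201 in control samples. In recovered samples the lowest value was 0.0871, the median 0.378 and the highest 0.727. The groups overlapped, because recovered samples 3 and 4, at 0.118 and 0.0871, lay below 5 of the 6 controls. After quantile normalisation, which gives every sample the same distribution of values, the control mean was -2.60 ± 0.67 (SD, n = 6) and the recovered mean -1.95 ± 0.68 (SD, n = 6), both as log2 intensity. The fold change was 1.56 (95% interval 0.882 to 2.78), or 0.65 on the log2 scale (SE 0.38), with an adjusted p of 0.397 from limma over all 3177 tested probes. An exact two-sided permutation test over the 12 samples gave p = 0.136. The log2 interval was wider when each adjacent pair was averaged first, from -0.52 to 1.81. With adjacent numbers as a random block in limma it ran from -0.71 to 2.0, with an adjusted p of 0.914. In bulk samples, fewer cells of a type and less RNA per cell cannot be told apart.

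On the normalised log2 scale CHLM was lowest in control 6, and highest in recovered 5, at -0.85, followed by the adjacent recovered 6 at -1.51. Control 6 stood apart at -3.90 on the normalised log2 scale, against -2.74 in the next control, and its deposited 0.0267 was the only CHLM value under the floor of 0.0322 used for dim probes. Without control 6 the log2 difference was 0.39, and without recovered 5 it was 0.43. Within its sample, the CHLM probe ranged from the 15.9 percentile of all probes in control 6 to the 71.7 percentile in recovered 5. The mean percentile was 33.5 ± 9.52 (SD, n = 6) in control and 46.1 ± 15.6 (SD, n = 6) in recovered samples, and the exact permutation test on this scale, which needs no scaling between samples, gave p = 0.132.

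CHLP, the geranylgeranyl reductase gene, had nearly equal group means, and behind them lay differences of opposite sign. Its deposited intensity ran from 1.14 over a median of 2.09 to 3.11 in control samples, and from 1.80 over a median of 2.0 to 3.32 in recovered samples. The range of the recovered samples lay almost wholly inside that of the controls. On the normalised log2 scale the control mean was 1.08 ± 0.58 (SD, n = 6) and the recovered mean 1.1 ± 0.33 (SD, n = 6). The fold change was 1.02 (95% interval 0.656 to 1.58), with an adjusted p of 0.973 from limma and an exact permutation p of 0.922. The interval thus runs from a 1.53-fold lower to a 1.58-fold higher level. It was wider when each adjacent pair was averaged first, from -1.08 to 1.13 on the log2 scale. With adjacent numbers as a random block in limma it ran from -0.73 to 0.79. Within its sample the CHLP probe stayed between the 87.7 and 95.8 percentile of all probes.

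Neither gene was called, where 2.17% of the tested probes were called at an adjusted p under 0.05. Both genes had overlapping groups, where 4.75% of the tested probes had groups that did not overlap. By unadjusted p, CHLM ranked 926 and CHLP 3036 among the 3177 tested probes. The absolute log2 difference was smaller than that of CHLM in 66.7% of the probes and smaller than that of CHLP in 3.15%.

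**Figure D1:**
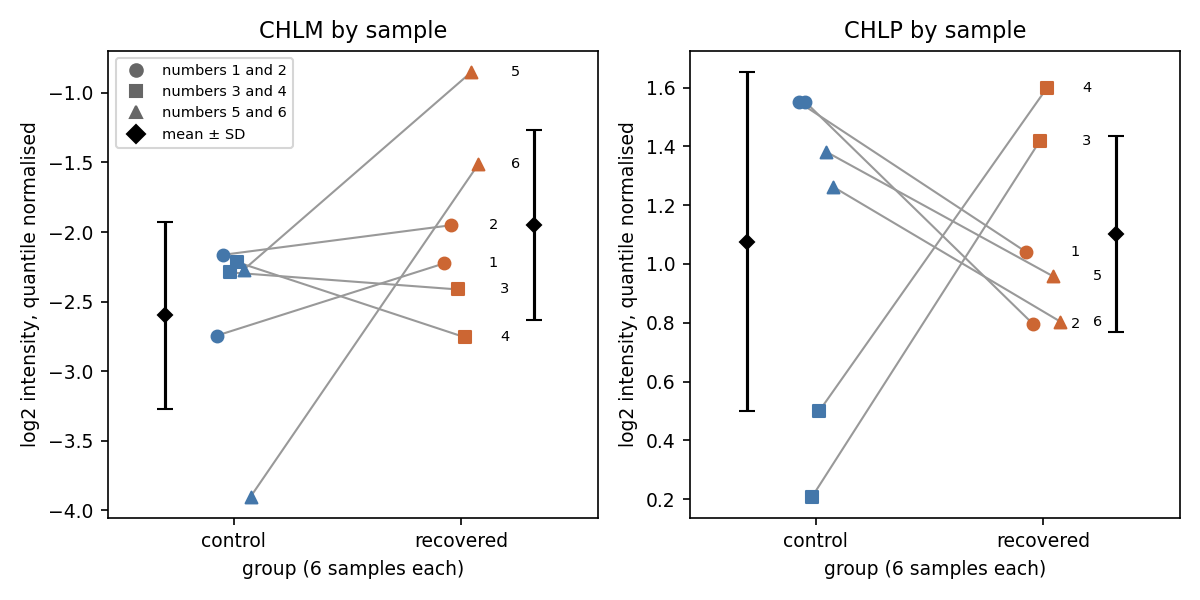
Normalised log2 intensity of CHLM (left) and CHLP (right) in each of the 12 samples, with control in blue and recovered in orange, symbols by adjacent replicate numbers, grey lines joining samples of the same number and black diamonds for mean ± SD (n = 6). CHLM lines rise steeply for numbers 5 and 6 only, and CHLP lines fall for numbers 1, 2, 5 and 6 and rise for 3 and 4.

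Both groups carry the numbers 1 to 6, and the samples were also compared by number. For CHLM the recovered sample lay above the control of its number in 4 of 6 pairs. Its log2 difference, recovered minus control, was 0.52 for number 1, 0.21 for number 2, -0.12 for number 3, -0.54 for number 4, 1.42 for number 5 and 2.39 for number 6. Only numbers 3 and 4 lay below 0, and number 6 includes the low control 6. For CHLP the recovered sample lay above in 2 of 6 pairs. Its log2 difference was -0.51 for number 1, -0.76 for number 2, 1.21 for number 3, 1.1 for number 4, -0.42 for number 5 and -0.46 for number 6. Adjacent numbers thus gave the same sign and nearly the same size for CHLP, and numbers 3 and 4 stood against the other 4. An exact sign-flip permutation test over the 6 pairs gave p = 0.250 for CHLM and p = 0.969 for CHLP, where 0.03125 is the smallest p it can give. With the replicate number as a block in limma, the adjusted p was 0.346 for CHLM and 0.969 for CHLP, and 2.68% of the probes were called.

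Adjacent numbers were then averaged to 3 values per group. The CHLP difference was -0.63 for numbers 1 and 2, 1.15 for numbers 3 and 4, and -0.44 for numbers 5 and 6. That corresponds to levels 1.55-fold lower, 2.23-fold higher and 1.36-fold lower in the recovered samples. The SD of CHLP within adjacent numbers was 0.134, which was smaller than in all but 9.63% of the tested probes. The SD between the averaged pairs of a group was 0.514, against a median of 0.673 over all tested probes, of which 33.4% had a smaller one. The CHLP values were thus repeatable within adjacent numbers and differed between them, the latter by less than in most tested probes. For CHLM the differences were 0.37, -0.33 and 1.90, with an SD of 0.551 within adjacent numbers and 0.589 between pairs. A difference in numbers 3 and 4 opposite in sign to that of both other pairs was common on the array, with 31.9% of the tested probes, so this pattern is not particular to the 2 genes. The distance between the highest and the lowest pair difference was 2.23 for CHLM and 1.79 for CHLP, against a median of 1.34 over all tested probes. With 3 values per group limma called 0 of the tested probes, or 0%, and 164 probes, or 5.16%, had an unadjusted p under 0.05, close to the share that this threshold gives by chance. The exact permutation test, which could not go below 0.1 with 3 values per group, gave p = 0.3 for CHLM and p = 1 for CHLP.

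**Figure D2:**
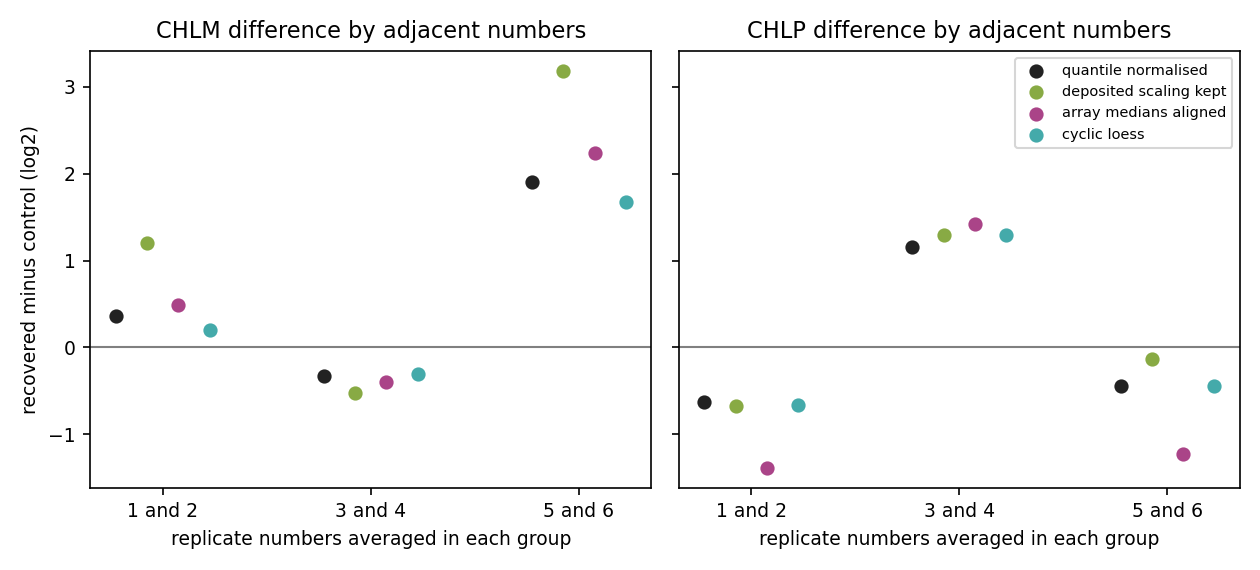
Difference between recovered and control samples (log2) for CHLM (left) and CHLP (right) with adjacent replicate numbers averaged, under 4 ways of scaling the arrays, each point being 1 difference. Under each scaling CHLM lies above 0 for numbers 1 and 2 and for 5 and 6 and below 0 for 3 and 4, and CHLP the other way round.

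These signs did not depend on the scaling. The arrays were also left at their deposited scaling, divided by their medians, or scaled by cyclic loess. For CHLP the difference in numbers 3 and 4 was 1.3, 1.43 and 1.29 with these 3 scalings, in that order. In numbers 5 and 6 the CHLP difference was -0.14, -1.23 and -0.45, so its size there did depend on them. For CHLM the difference in numbers 5 and 6 was 3.19, 2.24 and 1.67. With the deposited scaling and with cyclic loess, control 6 had been raised to the floor before log2, so 3.19 and 1.67 depend on where the floor was set. In numbers 3 and 4 the CHLM difference lay between -0.52 and -0.31 under the 4 scalings.

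Leaving out samples 3 and 4 of both groups left 4 samples per group. These were the numbers whose differences ran against the others in both genes, so the larger values without them follow from the choice and are given as a description, with no test. The CHLP difference was then -0.54 and the CHLM difference 1.13. In that fit 10.4% of the probes were called and neither gene was, which rests on the same choice and is not read as a result. Without samples 1 and 2 of both groups CHLM was at 0.79 and CHLP at 0.36, and without samples 5 and 6 CHLM was at 0.02 and CHLP at 0.26.

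CHLM on the deposited scale differed between the brighter and the dimmer recovered arrays. The 4 recovered samples with the highest array medians were the 4 with the highest CHLM intensity, from 0.353 in recovered 1 to 0.727 in recovered 5. Recovered samples 3 and 4, whose medians were among the lowest, had CHLM intensities inside the control range. Neither the 4 bright recovered arrays among themselves nor the controls followed such an order. Recovered 1 had the highest median of all, 0.458, and the lowest CHLM intensity of those 4. Control 1 had the highest control median, 0.284, and a CHLM intensity of 0.133, below the 0.142 and 0.149 of controls 3 and 4. With the deposited scaling kept and control 6 at the floor, the CHLM difference was 1.29 (95% interval 0.05 to 2.53) and its unadjusted p from limma was 0.0428, where 21.1% of the probes had an unadjusted p under 0.05 and the median log2 difference of all probes was 0.47. The adjusted p of CHLM with this scaling was 0.226. Relative to the median of all probes its difference was 0.81, and with array medians aligned it was 0.78. CHLP did not follow the medians in this way. Recovered samples 1, 2, 5 and 6 lay close together at 1.80 to 2.0, and recovered samples 3 and 4 were higher, at 2.93 and 3.32. With array medians aligned CHLP was at -0.40, and with the deposited scaling kept at 0.16. The sign of its overall difference is therefore not settled.

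**Figure D3:**
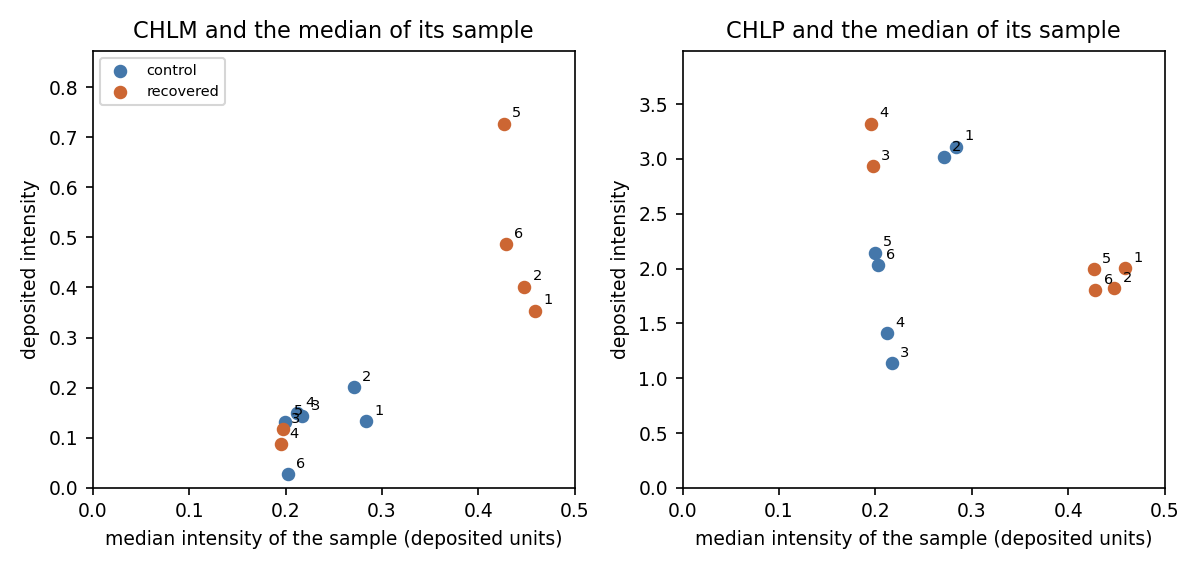
Deposited intensity of CHLM (left) and CHLP (right) against the median intensity of the same sample, with control in blue, recovered in orange and replicate numbers beside the points. Recovered samples 1, 2, 5 and 6, with medians of 0.426 to 0.458, hold the 4 highest CHLM values, while their CHLP values lie between 1.80 and 2.0.

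Whether the 2 genes responded unequally was tested on the log2 CHLM minus log2 CHLP difference within each sample. Its mean was 0.62 higher in recovered than in control samples (SE 0.56, 95% interval -0.63 to 1.87), and the exact permutation p was 0.292. By number the recovered sample was higher in 4 of 6 pairs, with 2.85 for number 6 at one end and -1.64 for number 4 at the other. Numbers 3 and 4 were the 2 with differences below 0. The difference was 0.43 without samples 1 and 2 of both groups, 1.67 without samples 3 and 4 and -0.24 without samples 5 and 6, given as a description with no test. An unequal response was thus not shown over all samples, and the interval includes an unequal response of either sign.

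Across samples the correlation between the 2 genes was below 0 and did not pass a test. Over the 12 samples Pearson's r between them was -0.35 and Spearman's rho -0.48. Over the 6 values with adjacent numbers averaged, r was -0.46 (exact permutation p = 0.357) and rho -0.60 (exact permutation p = 0.242). Without the 2 of these 6 values farthest from the CHLM median, r was -0.71, with no test and too few values left to read it as a stronger relation. This was the only relation between members that was computed. Among the 630 other tested probes with 1 gene, 15.2% had a lower r with CHLM than CHLP had.

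The genes whose pattern was most like that of each member were taken by Pearson's r over the 12 samples, which share arrays and adjacent numbers, so no p is given. For CHLM they were GLX2-1 (AT2G43430), a glyoxalase II gene, at 0.82, AT2G37420 at 0.80, AT4G22370 at 0.77, AT2G43990 at 0.76 and AT4G29890 at 0.75. With group means removed these values lay between 0.67 and 0.77. For CHLP they were AT4G35660 at 0.87, the cyanase gene CYN (AT3G23490) at 0.86, AT1G22700, which encodes a tetratricopeptide protein needed for photosystem I accumulation, at 0.84, AT4G17260, a lactate dehydrogenase gene, at 0.83 and AT4G19900 at 0.82. With group means removed these lay between 0.83 and 0.90. None of these 10 genes was called, with adjusted p-values from limma between 0.143 and 0.853, where 2.17% of all tested probes were called. They were picked for their likeness to uncalled genes over the same samples, so this count is no result about them.

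Of 34 listed genes of tetrapyrrole and chlorophyll synthesis, 3 had a probe of their own and 3 were tested. In limma 0 passed in either direction, where 2.17% of all tested probes were called. An unadjusted p under 0.05 was found for 0 of the 3 and for 580, or 18.3%, of all tested probes, so counts of 0 among so few genes do not set them apart. The third, besides CHLM and CHLP, was HEMA3 (AT2G31250), a member of the glutamyl-tRNA reductase family that makes the precursor of 5-aminolevulinic acid. The normalised log2 intensity of HEMA3 ran from -0.36 over a median of 0.00 to 0.82 in control samples and from -0.94 over 0.08 to 0.30 in recovered samples. These groups overlapped, and the log2 difference was -0.34 (SE 0.31, adjusted p = 0.589 from limma). HEMA3 had pair differences of -0.85, 0.27 and -0.44, with the same signs as CHLP. Numbers 3 and 4 stood apart in sign, in either direction, in 31.9% of all tested probes. Another 4 probes list several genes, at least 1 of them of this pathway, and cannot be assigned. All 4 were tested and 0 were called, with log2 differences from -0.02 to 0.58.

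Among genes next to the 2 enzymes, VTE6 (AT1G78620) encodes the phytyl phosphate kinase that returns phytol from chlorophyll to tocopherol synthesis, and so draws on the product of CHLP. Its normalised log2 intensity ran from -0.49 over a median of -0.26 to -0.12 in control samples and from -1.27 over -0.15 to -0.02 in recovered samples. Recovered samples 1 and 2 lay below all controls, and the other 4 recovered samples above 5 of the 6 controls or more. The log2 difference of VTE6 was -0.11 (SE 0.25, adjusted p = 0.851 from limma). It was the only one of 9 listed genes of tocopherol and phylloquinone synthesis with a probe of its own.

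NTRC (AT2G41680), the plastid NADPH-dependent thioredoxin reductase known to maintain CHLM at the protein level in Arabidopsis, had pair differences of 0.21, -1.58 and 1.54, with the same signs as CHLM. Its normalised log2 intensity ran from -2.29 over a median of -1.32 to -0.52 in control samples and from -2.25 over -1.11 to -0.43 in recovered samples. The groups covered nearly the same range, and its overall log2 difference was 0.06 (SE 0.40, adjusted p = 0.956 from limma). Pearson's r of NTRC over the 12 samples was 0.74 with CHLM, rank 6 among the 630 probes, and -0.74 with CHLP, rank 619. These values, too, carry no p, and in 31.9% of all tested probes numbers 3 and 4 stood apart in sign, in either direction. The share with the signs of CHLM alone was not computed. LHCB1.5 (AT2G34420), whose protein binds chlorophyll, had a log2 difference of 0.23 (SE 0.21, adjusted p = 0.582 from limma).

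The listed genes of the heme and bilin branch, of chlorophyll breakdown, of the isoprenoid supply of the phytyl chain and of methyl donor supply had no probe of their own and were not analysed here. Of the 109 genes in all lists, 6 were tested and 0 passed in limma, with 0 at an unadjusted p under 0.05, against the same 2.17% and 18.3% of all tested probes. The signs of the 4 genes other than CHLM and CHLP are not settled. HEMA3 lay between -0.64 and -0.08 under the 4 scalings, but above 0 in numbers 3 and 4. VTE6 was at 0.23 with the deposited scaling kept, NTRC at -0.17 and LHCB1.5 at -0.53 with array medians aligned.

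**Figure D4:**
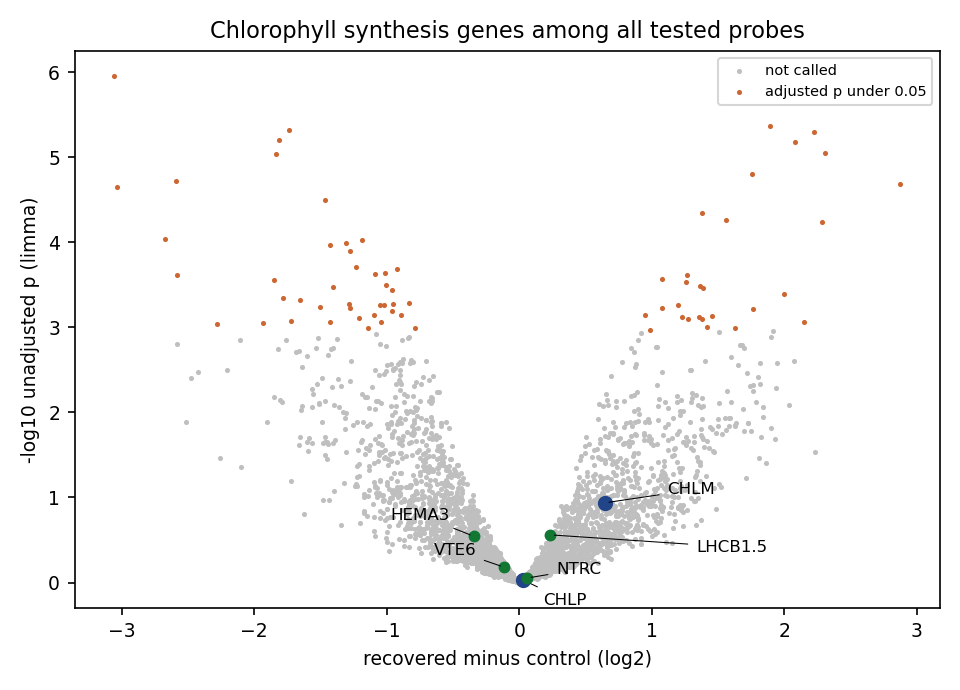
Log2 difference (recovered minus control) against -log10 of the unadjusted limma p for all 3177 tested probes, with called probes in orange, CHLM and CHLP in blue and the 4 other listed genes in green. CHLM, at 0.65, and CHLP, at 0.03, lie among the probes that were not called.

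**Figure D5:**
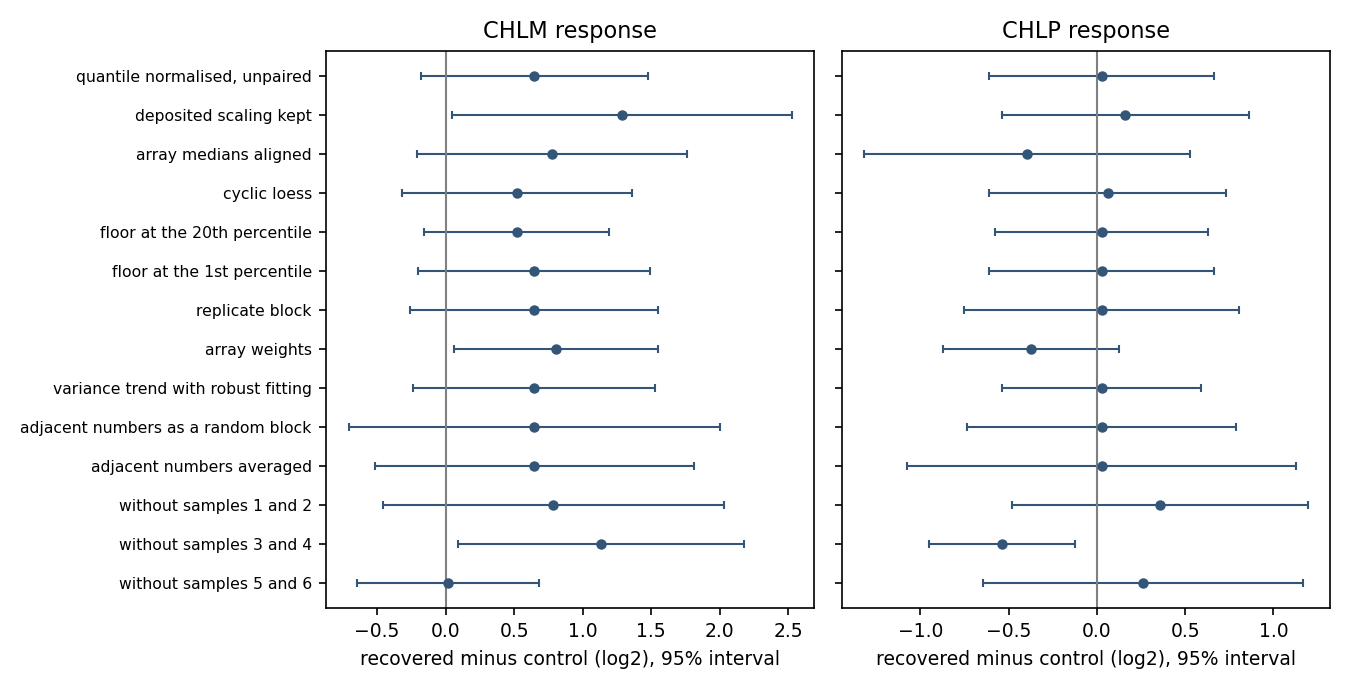
Log2 difference of CHLM (left) and CHLP (right) between recovered and control samples under 14 settings, with points for the estimate and bars for the 95% interval. CHLM lies above 0 under each setting, from 0.02 to 1.29, while CHLP lies at -0.54 without samples 3 and 4 and at 0.36 without samples 1 and 2. Settings that change only the block, the averaging, the variance model or a lower floor keep the same estimate.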

How the data were processed

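Transcript levels were measured on arrays in 12 samples, and the groups and replicate numbers were taken from the sample titles. The authors deposited 1 linear, non-negative intensity per probe and sample, with a maximum of 100 in 11 of 12 samples. How background, scaling and repeated spots were handled before deposit is not given in the sources used here.

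Intensities were quantile normalised between arrays, values under 0.0322 (the 5th percentile of positive deposited values) were raised to that floor, and the result was log2 transformed. Probes with at least 6 deposited values above the floor were tested, 3177 of them, and 262 were not. Recovered samples were set against control samples in an unpaired two-sided limma test (version 3.58.1, R 4.3.3, functions lmFit and eBayes), with Benjamini-Hochberg adjustment over all tested probes and calls at an adjusted p under 0.05. Exact permutation tests over samples were run for single values. The procedure was tested on simulated data, and no result of that is given here. The unpaired test does not model the resemblance of adjacent numbers. The correlation within adjacent numbers was 0.695 in the limma fit with these numbers as a random block.

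Names came from the platform's annotation, with 1 gene for 692 probes, several for 870 and none for 1877, and symbols from RefSeq assembly TAIR10.1. Coordinates and sequences are left out, since no build or sequence was at hand.

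With group means removed, control and recovered samples of the same number correlated at 0.111 to 0.487 over the tested probes. Both groups carry the same numbers in their titles, and these were treated as possible pairs. The correlations cannot show that they are pairs, because differently numbered samples are not given for comparison. The 6 pairs are not independent, because adjacent numbers resemble each other. No label names a shared batch. The main fit had no block, and the fit with the replicate block is given beside it.

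The members and gene lists were chosen with earlier results of these data known. Both members are described in full, and for each the 5 tested probes with 1 gene and the highest Pearson's r over the 12 samples are named, with the listed genes that have a probe of their own. Other scalings, floors, filters, weights, blocks, averaged adjacent numbers and left-out samples were tried as alternatives.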

Additional observations from a re-analysis of the deposited data

Results flagged for a closer look

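For the 6 tested genes of the lists, each group was searched for a lone highest or lowest sample by Dixon's ratio, and 1 of 12 sets of values had one. For independent values chance gives about 1 in 20, or 0.6 of 12. Adjacent numbers resemble each other, so the share that chance gives here is not known. CHLM was at -3.90 in control 6 on the normalised log2 scale, against -2.74 in the next control, a gap of 0.665 of the whole spread of control values. Without control 6 the CHLM difference was 0.39 in place of 0.65. The cause was not tested.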

How the results depend on the processing

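The CHLM difference lay above 0 and did not pass under all 41 log2-scale alternatives. It ran from 0.02 without samples 5 and 6 of both groups to 1.29 with the deposited scaling kept. Blocks, averaging of adjacent numbers, a lower floor, the probe filter, the variance model and the exact tests cannot move either gene's estimate. The left-out sets overlap, so the 41 are not separate checks of the sign. The p-values ran from 0.136, an unadjusted exact permutation p, to 0.984, an adjusted p from limma. CHLP was uncalled under all 41 and lay below 0 under 11: it was at -0.40 with array medians aligned, at -0.37 with array weights, and between -0.54 (without samples 3 and 4 of both groups) and 0.36 (without samples 1 and 2) with samples left out. Leaving out control 3 alone put it at -0.15, control 4 at -0.09, recovered 3 at -0.04 and recovered 4 at -0.07. The CHLM minus CHLP difference of 0.62 was past 0.05 with array weights, at 1.18 (a weighted linear model, with no exact test), and ranged from -0.24 (without samples 5 and 6) to 1.67 (without samples 3 and 4) with samples left out. It was not computed with a variance trend, which applies across probes. With the replicate block CHLM stayed at 0.65 and CHLP at 0.03, and no call of either gene changed. The 69 called probes became 35 with the deposited scaling kept, 121 with the floor at the 20th percentile, 239 with array weights and 109 with a variance trend and robust fitting. With adjacent numbers averaged 0 were called, with or without a block, and 1 with these numbers as a random block. With samples left out the count ran from 2 (without samples 5 and 6 of both groups) to 331 (without samples 3 and 4 of both groups). Numbers 3 and 4 were known to run against the others, so the values without them support nothing. Averaging with a block was chosen after seeing the data. The averaged and left-out fits also had fewer samples, and the cause of these changes was not tested. The distance of CHLM from the array background is not known, and its control 6 value lay under the floor before normalisation.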
